A study of Mus musculus with 2 samples.

Results

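The genes described are 10 members of the T-box family of transcription factors: Tbx1, Tbx2, Tbx3, Tbx4, Tbx5, Tbx6, Tbx15, Tbx18, Tbx20 and Tbx21. Their CpGs were all those measured in the annotated gene bodies and in 5 kb on either side, which gave 1539 of the 1790826 CpGs measured, and 1046 of the 996064 that lie outside the sequences CCGG and TCGA. Methylation was measured by reduced representation bisulfite sequencing (RRBS), in which DNA is cut with restriction enzymes and treated with bisulfite so that unmethylated cytosine is read as thymine. The samples were mouse embryonic fibroblasts (MEFs, cells grown out of mouse embryos) of the genotypes Dnmt1+/+ and Dnmt1-/-. There was 1 library per genotype, so genotype and library cannot be told apart and all errors given are counting errors. The enzyme made from Dnmt1 restores methylation on newly made DNA strands when cells divide. The Dnmt1-/- cells were homozygous for a hypomorphic allele, Dnmt1 n/n, and both lines were in addition homozygous for a null allele of trp53, so the controls were not wild type at that gene. Only methylation was measured here, and the cell type label could not be checked against marker expression.

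T-box proteins share a DNA-binding domain, the T-box, named after the founding member T (brachyury), and they act as activators or repressors of genes that pattern the mesoderm, heart, limbs and other organs. Tbx2 and Tbx4 are neighbours on mouse chromosome 11, and Tbx3 and Tbx5 are neighbours on chromosome 5, an arrangement that descends from an ancestral gene pair. Like many developmental regulators, most T-box genes begin in a CpG island, a stretch of DNA rich in CG dinucleotides that is usually unmethylated in somatic cells, while the body of a gene outside islands is usually methylated.

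The 6 stretches of sequence below are shown because the results turn on them. They are written 5′ to 3′ along the gene, on the mm9 (NCBIM37) build, and capitals mark the measured CpGs outside CCGG and TCGA. The first lies upstream of the Tbx2 start in its promoter island (chr11:85645549-85645639, plus strand), and the next is the stretch with the largest rise of all T-box genes, in a coding exon of Tbx2 (chr11:85651380-85651475, plus strand). The Tbx4 stretch lies in a coding exon next to a later annotated start of that gene (chr11:85703617-85703764, plus strand), and the Tbx20 stretch lies upstream of its gene (chr9:24581709-24581908, minus strand). The Tbx3 stretch (chr5:120118793-120118984, plus strand) and the Tbx21 stretch, in an intron (chr11:96970549-96970672, minus strand), are the places with the largest fall in those genes.
Tbx2 promoter: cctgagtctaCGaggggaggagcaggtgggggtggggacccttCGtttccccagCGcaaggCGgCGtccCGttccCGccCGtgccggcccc
Tbx2 rise: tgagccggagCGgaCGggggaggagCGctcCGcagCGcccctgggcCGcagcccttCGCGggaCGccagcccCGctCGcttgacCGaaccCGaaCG
Tbx4 rise: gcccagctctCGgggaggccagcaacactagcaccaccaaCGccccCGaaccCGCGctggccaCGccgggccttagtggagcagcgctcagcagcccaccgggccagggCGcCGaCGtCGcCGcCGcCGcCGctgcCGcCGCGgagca
Tbx20 rise: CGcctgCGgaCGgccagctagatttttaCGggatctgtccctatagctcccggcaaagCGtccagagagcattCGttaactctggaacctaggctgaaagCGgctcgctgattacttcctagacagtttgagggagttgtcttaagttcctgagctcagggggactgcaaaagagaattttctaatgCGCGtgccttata
Tbx3 fall: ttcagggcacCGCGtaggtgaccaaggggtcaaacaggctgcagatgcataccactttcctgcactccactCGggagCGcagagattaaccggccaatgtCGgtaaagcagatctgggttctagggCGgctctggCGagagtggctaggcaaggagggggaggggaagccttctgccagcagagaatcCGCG
Tbx21 fall: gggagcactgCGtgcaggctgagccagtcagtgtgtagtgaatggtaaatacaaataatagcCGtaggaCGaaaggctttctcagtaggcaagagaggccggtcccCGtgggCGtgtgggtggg

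The 8 measured CpGs of the Tbx2 promoter stretch averaged 2.88% in Dnmt1+/+ and 1.43% in Dnmt1-/-. Further along the gene, the 14 CpGs of the Tbx2 rise averaged 6.95% and 45.3%. These parts of the gene were both low in Dnmt1+/+, and only the second was raised in Dnmt1-/-.

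The T-box CpGs outside CCGG and TCGA had a median depth of 40 calls in both libraries. Over the whole table, with CCGG and TCGA included, it was 29 and 30 calls. Extremes at these T-box CpGs were 10 and 192 calls in Dnmt1+/+ and 10 and 238 in Dnmt1-/-. Deeper CpGs are called more readily, and the shares called below were not matched for depth. At 40 calls, a CpG with 0 methylated calls may still have a level of up to 7.50% (3 calls). CpGs in CCGG or TCGA, which are the cutting sites of MspI and TaqI, averaged 55.6% and 54.7% in the promoter islands described here, against 13.8% and 9.30% for the remaining CpGs, and all values below leave them out. The methylated and unmethylated calls of each CpG were set against each other in Fisher's exact test (two-sided), p-values were adjusted by Benjamini-Hochberg across the whole table, and a CpG was called at an adjusted p under 0.05. A CpG called in this way differs between 2 libraries, which is not a test of the genotypes.

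Over the T-box genes, mean methylation was 25.2% in Dnmt1+/+ and 17.0% in Dnmt1-/-, against 45.0% and 15.1% over all CpGs. Of the 1046 T-box CpGs, 237 were called lower in Dnmt1-/-, which is 22.7%, against 44.2% of all CpGs. In the other direction 80 were called higher, which is 7.65%, against 0.635% of all CpGs. These higher calls lay mostly in Tbx2 (54 of 228 CpGs), Tbx4 (11 of 72), Tbx20 (7 of 39) and Tbx5 (6 of 100). Tbx1 and Tbx3 had 1 each, and Tbx6, Tbx15, Tbx18 and Tbx21 had 0.

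The starting level matters to both counts, since a CpG at a low level has little to lose. Among CpGs at 20% or less in Dnmt1+/+, 59 of 673 T-box CpGs were called higher, or 8.77%, against 1.05% over the table. Their mean went from 5.64% to 8.27%, whereas that of all such CpGs went from 3.06% to 2.06%. Among CpGs at 80% or more in Dnmt1+/+, 97 of 122 T-box CpGs were called lower, or 79.5%, against 88.2% over the table. The latter T-box CpGs averaged 90% in Dnmt1+/+ and 38.9% in Dnmt1-/-, against 94.6% and 32.0% over the table. Among the genes with at least 5 CpGs in this class the residual level ran from 15.2% at 9 CpGs of Tbx5 and 16.1% at 18 CpGs of Tbx21 to 53.2% at 12 CpGs of Tbx1 and 61.9% at 15 CpGs of Tbx2.

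To compare promoter islands with the rest of each gene, CpGs were divided into 3 classes. An island was a run of sequence covered by windows of 200 bp with at least 50% GC and an observed over expected CpG ratio of at least 0.6. A promoter island overlaps 1 kb on either side of the start of a protein-coding transcript of that gene. Other islands lie elsewhere in the gene or its flanks, and body and flank CpGs lie in no island. A mean that changed by 10 percentage points or more over at least 5 CpGs is said to have risen or fallen.

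Promoter islands of the T-box genes were mostly unmethylated in both libraries. Of the 9 genes with at least 5 measured CpGs in promoter islands, 7 stayed within 10 points, 1 rose and 1 fell. Over all protein-coding genes, promoter islands rose in 0.835% and fell in 11.9%. The median change was -0.813 points for the T-box genes and -1.10 points for the 13054 genes of the background. The gene that rose was Tbx4, from 26.1% to 47.7% over 22 CpGs, and the gene that fell was Tbx3, from 27.0% to 10.6% over 94 CpGs. Both changes came from islands at a later annotated start. When only the start furthest 5′ was used, a choice made after the values had been seen, Tbx4 had only 4 CpGs and could not be read, and 0 of the other 8 genes rose or fell.

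The lowest promoter islands were those of Tbx15 (1.53% in Dnmt1+/+ and 0.715% in Dnmt1-/-, 46 CpGs) and Tbx18 (1.65% and 1.28%, 69 CpGs). Tbx2 had 3.63% and 1% over 52 CpGs, Tbx20 3.33% and 5.67% over 10, Tbx5 3.51% and 4.07% over 13, and Tbx21 5.42% and 2.43% over 19. Tbx1 was higher than these in both libraries, at 30.4% and 22.3% over 50 CpGs, or 24.2% and 19.2% in pooled calls. Tbx6 had 0 measured CpGs in its promoter island.

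**Figure D1:**
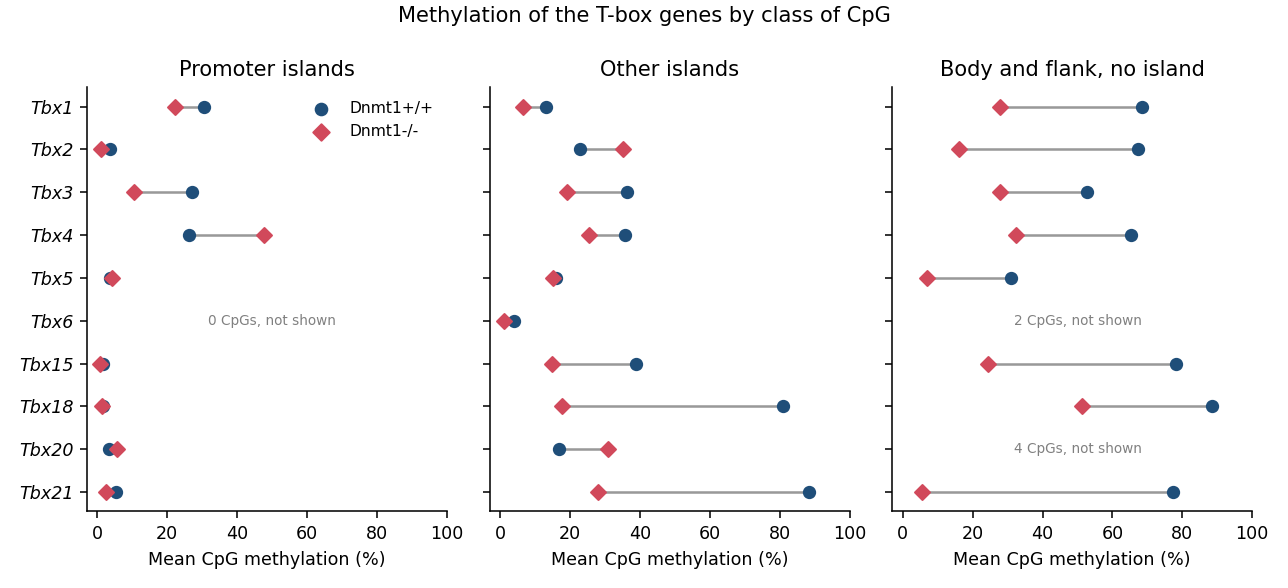
Mean CpG methylation in percent (x axes, linear, from 0 to 100) of each T-box gene (rows) in promoter islands, other islands, and body and flank without islands. Circles are the Dnmt1+/+ library and diamonds the Dnmt1-/- library, 1 library each, with no error bars, and classes with under 5 CpGs are not shown. Diamonds lie far to the left of circles in body and flank of all 8 genes shown there, whereas Tbx4 in promoter islands and Tbx2 and Tbx20 in other islands lie to the right.

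Outside islands, methylation was lost in each T-box gene with enough CpGs to be read. Body and flank fell in 8 of 8 genes with at least 5 such CpGs and rose in 0, against 99.1% of 12851 protein-coding genes that fell and 0.187% that rose. The fall was smaller in the median, at -39.1 points against -54.5 points for all genes, and the T-box genes except Tbx18 started below the background median of 84.1%, within a range from 31.1% to 88.5%. In Dnmt1-/- they ranged from 5.49% to 51.2%, with a background median of 25.8%. Tbx21 had the lowest Dnmt1-/- level, with a fall from 77.4% to 5.49% over 16 CpGs, all 16 called lower. Tbx18 had the highest, with 88.5% and 51.2% over 12 CpGs. Only 1 of the 121 CpGs in this class was called higher, in Tbx4, and 77 were called lower. Over all CpGs of the table, islands included, 0.635% were called higher and 44.2% lower. The shares over all body and flank CpGs were not counted.

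Islands were then read one by one. There were 42 islands with at least 5 CpGs, of which 6 rose, 10 fell and 26 stayed within 10 points. Of 12 promoter islands 1 rose (8.33%, against 1.21% over all genes) and 2 fell (16.7%, against 13.3%). Of 30 islands away from promoters 5 rose (16.7%, against 1.69%) and 8 fell (26.7%, against 82.7%). Restricted to islands at 20% or less in Dnmt1+/+, 0 of 9 T-box promoter islands rose, against 1% over all genes, and 3 of 16 islands away from promoters rose (18.8%), against 6.12%. The shares away from promoters rest on unlike classes. T-box islands were judged by the starts of their own gene, and background islands by those of any protein-coding gene. The Tbx6 island over the start of Ypel3 is thus among the 30 and the 16. With pooled calls, 2 of the islands that fell did so by under 10 points, namely the Tbx1 island 0.881 kb upstream (61.2% and 53.3%) and the Tbx4 island at 31.8 kb (61.2% and 55%), whereas a Tbx1 island at 6.68 kb passed that limit (30.8% and 16.3%). The number of T-box islands is small, and islands of 1 gene are not independent of each other.

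**Figure D2:**
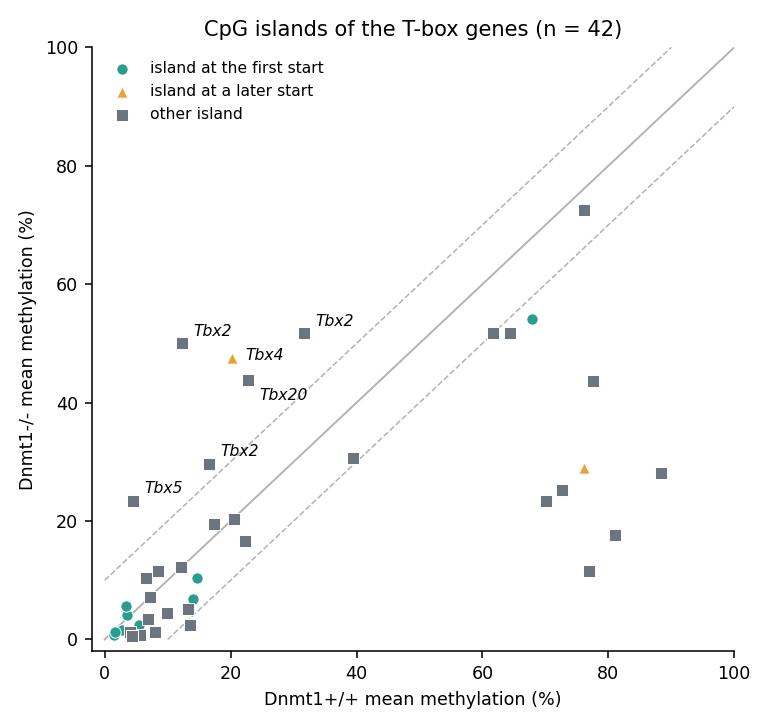
Mean methylation in percent of each of the 42 CpG islands with at least 5 CpGs, in Dnmt1+/+ (x axis) and in Dnmt1-/- (y axis). The solid line marks equal levels and the dashed lines a change of 10 points. The 6 islands above the upper dashed line, named by gene, have Dnmt1+/+ means from 4.42% to 31.6%, and most islands that start above 60% lie below the lower dashed line.

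The 6 islands that rose were 3 of Tbx2 and 1 each of Tbx4, Tbx5 and Tbx20. They lay between 2.63 and 5.56 kb from the first start of their gene, 2 of them upstream and 4 within it. Their Dnmt1+/+ means were between 4.42% and 31.6% and their Dnmt1-/- means between 23.4% and 51.7%. In base composition they overlapped the other 36 islands, with a median GC content of 60.5% against 58.7% and a median observed over expected CpG ratio of 0.668 against 0.680. Median length was 840 bp against 692 bp.

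Tbx2 (chromosome 11, 85646053 to 85655450, plus strand) encodes a repressor that acts in patterning of the heart and limbs. It had the most higher calls of the 10 genes, 23.7% of its CpGs, and 44 of its 155 CpGs at 20% or less in Dnmt1+/+ were called higher. Its promoter island (85645151 to 85647226) was not among them, with 0 CpGs called higher and 3 called lower. Over the pooled calls of this island the methylated share was 4.33% in the Dnmt1+/+ library, with a Wilson interval (95%) of 3.47 to 5.39%. In Dnmt1-/- it was 0.991% (0.642 to 1.53%).

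The strongest rise lay 5.56 kb into Tbx2, in an island that contains a coding exon (85651122 to 85652113). Its 38 CpGs averaged 12.3% in Dnmt1+/+ and 50% in Dnmt1-/-, and 28 were called higher and 0 lower. Pooled over 1997 and 1957 calls, methylation was 9.26% (8.07 to 10.6%) and 50.1% (47.9 to 52.3%). The next island upstream (85650282 to 85651058) holds coding sequence as well and averaged 31.6% and 51.7% over 28 CpGs, of which 15 were called higher and 2 lower. An island 2.63 kb upstream of the Tbx2 start (85642732 to 85644119) averaged 16.5% and 29.7% over 33 CpGs, with 10 called higher. This upstream island also lies within the annotated extent of 2610027K06Rik, a gene on the minus strand.

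Within the printed Tbx2 rise, the 14 CpGs lay between 1.45% and 18.8% in Dnmt1+/+ and between 7.41% and 67.8% in Dnmt1-/-, and 13 were called higher. The first of them read 8.70% and 67.8%, and the last 7.25% and 61.0%. The only one not called was the third, with 1.67% and 7.41%. These CpGs share reads: 13 of them had 69 calls in Dnmt1+/+ and 12 had 59 calls in Dnmt1-/-, so they are not 14 separate observations.

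Further islands of Tbx2 had lower means in Dnmt1-/-. An island of 5 CpGs at 2.15 kb fell from 77.6% to 43.7%. An island at 8.30 kb, over the last exon, had 76.1% and 72.5% over 13 CpGs, with 1 called lower, or 79.0% (75.4 to 82.2%) and 71.4% (67.7 to 74.9%) in pooled calls. The islands at 9.50 and 11.8 kb, at and beyond the 3′ end, were low in both libraries, at 8.06% and 1.32% and at 5.59% and 0.716%. Outside islands, 10 CpGs fell from 67.3% to 16.2%, and 9 of them were called lower. With a stricter definition of islands, which moves CpGs into this class, the difference was -18.6 points rather than -51.0.

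**Figure D3:**
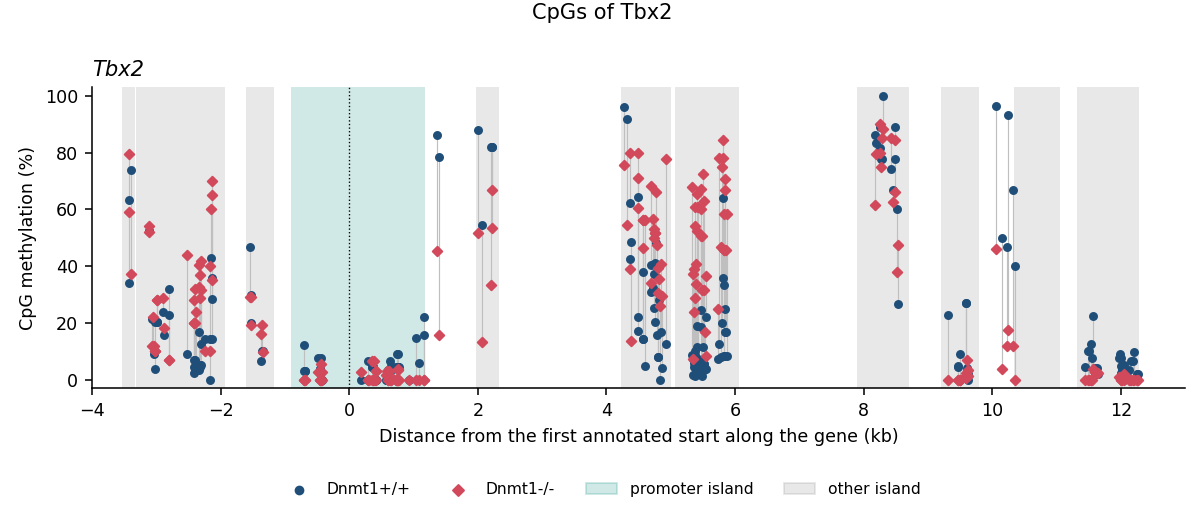
Methylation in percent of each Tbx2 CpG outside CCGG and TCGA (y axis) against its distance in kb from the first annotated start along the gene (x axis, start at the dotted line). Circles are Dnmt1+/+, diamonds Dnmt1-/-, grey lines join the 2 values of a CpG, and shading marks the promoter island and other islands. CpGs of the promoter island lie at 22.2% or less in both libraries, and the diamonds lie above the circles at most CpGs of the islands at 4.62 and 5.56 kb.

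Tbx4 (chromosome 11, 85699924 to 85729599, plus strand), needed for hindlimb and allantois development, follows Tbx2 along chromosome 11. Its island at 3.99 kb (85703492 to 85704331), at a later annotated start, averaged 20.2% in Dnmt1+/+ and 47.6% in Dnmt1-/- over 18 CpGs, and 10 were called higher and 0 lower. Pooled calls were 16.3% methylated (13.9 to 19%) and 35.3% (32.3 to 38.5%). The rise was uneven along the printed Tbx4 stretch. The first 3 of its 17 CpGs read 17.2%, 7.34% and 10.3% in Dnmt1+/+ and 10.9%, 9.45% and 10.9% in Dnmt1-/-. The last 11, all with 29 and 31 calls, lay between 13.8% and 48.3% in Dnmt1+/+ and between 32.3% and 93.5% in Dnmt1-/-.

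At the first start of Tbx4 only 4 island CpGs were measured, with means of 52.7% and 48.0%. An island at 8.85 kb in an intron averaged 22.3% and 16.7% over 17 CpGs, and an island of 5 CpGs downstream of the gene had means of 64.3% and 51.7%, with 1 called lower. Body and flank fell from 65.2% to 32.4% over 24 CpGs. Near 12.3 kb, 5 CpGs averaged 87.9% in Dnmt1+/+, and although all 5 were called lower, they kept 45.0%, the second highest Dnmt1-/- level among T-box windows of 500 bp that started at 80% or more.

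Tbx20 (chromosome 9, 24527648 to 24578746, minus strand) encodes a cardiac transcription factor. Its island 3.35 kb upstream of the start (24581673 to 24582512) averaged 22.7% and 43.8% over 15 CpGs, and 5 were called higher and 0 lower. Pooled calls were 23.6% methylated (19.5 to 28.2%) and 41.2% (36.1 to 46.5%). The 15 CpGs had 369 and 342 calls, fewer per CpG than the T-box median, and the rise was 5.54 points at CpGs with 20 or more calls in each library. In the printed stretch the first 4 CpGs read 7.69%, 37.5%, 16.7% and 20.8% in Dnmt1+/+ and 72.7%, 78.9%, 52.6% and 63.2% in Dnmt1-/-, each called higher. The remaining 5 ranged from 10% to 44.4% and from 10% to 53.6%, with 0 called. An island of Tbx20 over a coding exon at 3.86 kb was low in both libraries, at 8.42% and 11.6% over 10 CpGs, although 2 were called higher.

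Tbx5 (chromosome 5, 120284672 to 120335227, plus strand) acts in the forelimb and heart and is mutated in Holt-Oram syndrome. Its intronic island at 2.75 kb (120287241 to 120287600) averaged 4.42% in Dnmt1+/+ and 23.4% in Dnmt1-/- over 11 CpGs, with 3 called higher. Pooled calls were 5.03% methylated (3.40 to 7.38%) and 17.7% (14.2 to 21.8%), and single CpGs of the island ranged from 0% to 76.7% in Dnmt1-/-. Both adjoining measured islands had only 4 CpGs, with means of 15.9% and 32.6% at 2.16 kb and of 1.47% and 25% at 4.59 kb. Islands with nearly equal levels in both libraries included those at -3.08 kb (12.1% and 12.3%, 19 CpGs) and at 10.5 kb (7.22% and 7.14%, 7 CpGs). Toward the end of the gene, 4 CpGs of an island at 49.0 kb went from 90.2% to 33.6%, and all 4 were called lower.

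**Figure D4:**
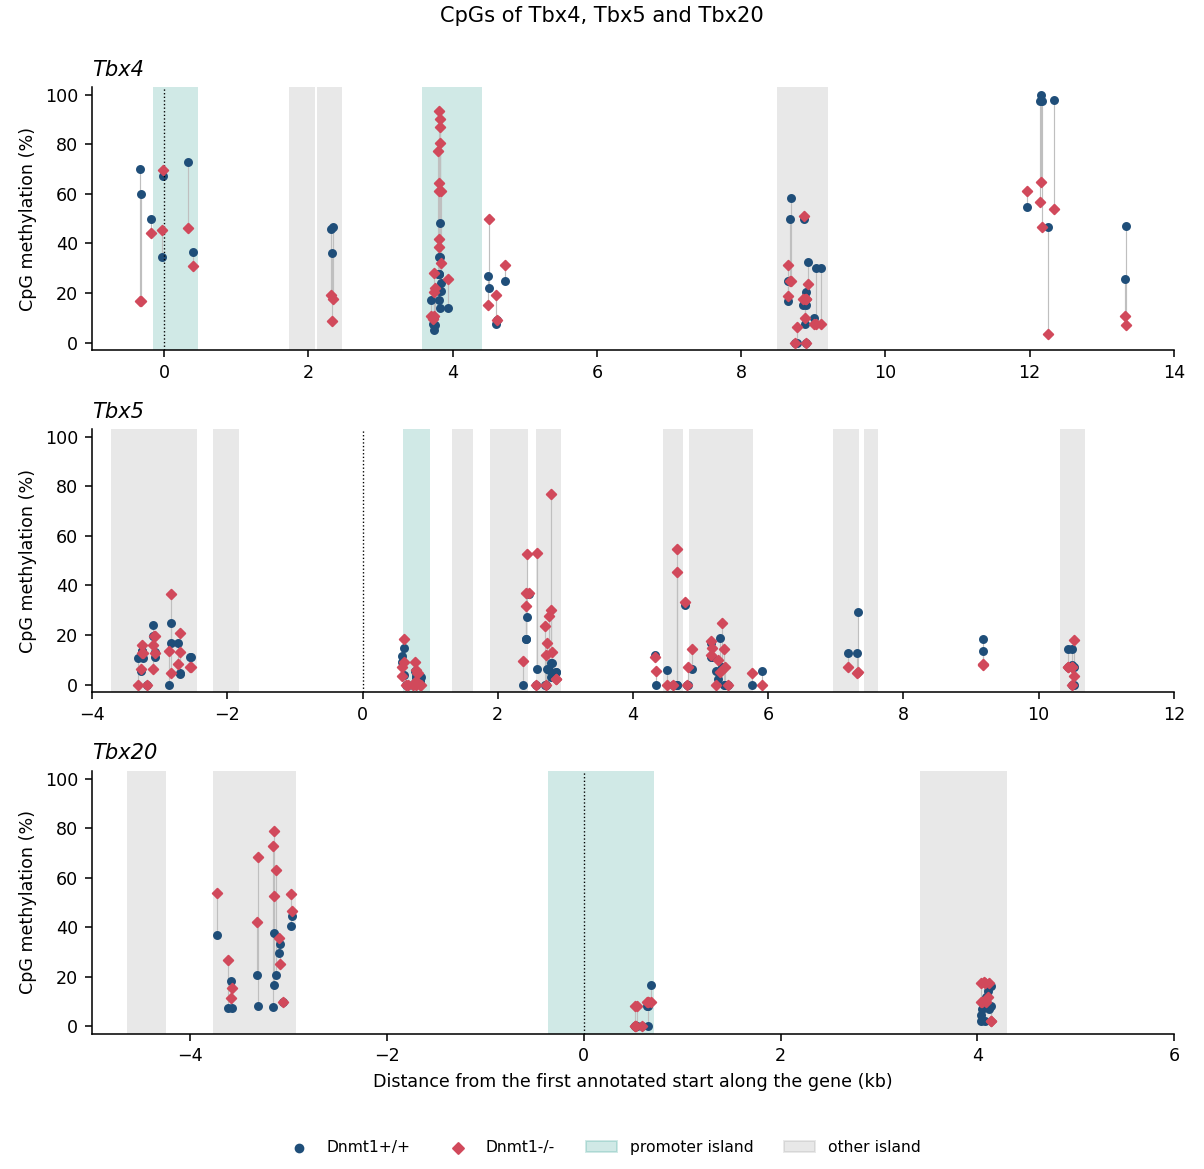
Methylation in percent of single CpGs of Tbx4, Tbx5 and Tbx20 (y axes) against distance in kb from the first annotated start along each gene (x axes), for the part of each gene that holds most measured CpGs. Circles are Dnmt1+/+, diamonds Dnmt1-/-, and shading marks promoter and other islands. Diamonds lie above circles at most CpGs of the islands at 3.99 kb in Tbx4, at 2.75 kb in Tbx5 and at -3.35 kb in Tbx20, and the promoter islands of Tbx5 and Tbx20 lie at 18.2% or less.

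Tbx3 (chromosome 5, 120120678 to 120134733, plus strand), the relative of Tbx2 that is mutated in ulnar-mammary syndrome, had 63 of 167 CpGs called lower and 1 called higher. For Tbx3 these are 37.7% and 0.599%, against 44.2% and 0.635% of all CpGs. Its first promoter island (120119576 to 120122351) was low in both libraries, at 2.78% and 1.58% over 63 CpGs. The island at its later start, 9.98 kb into the gene (120130281 to 120131043), lies over coding sequence and averaged 76.1% and 28.9% over 31 CpGs, with 30 called lower. In Tbx4 the coding island at a later start thus rose from a low level, and in Tbx3 the one at a later start fell from a high level. Upstream of Tbx3, the 9 CpGs of the printed stretch went from 77.0% to 11.5%, and each of the 9 was called lower. They lay between 41.9% and 97.0% in Dnmt1+/+ and between 0% and 27.6% in Dnmt1-/-. The stretch was picked for its large fall, a choice that favours a gap between the 2 ranges. Over the table, lower calls made up 88.2% of CpGs that started at 80% or above. The 9 CpGs also share reads: 5 had 33 calls in Dnmt1+/+ and 5 had 34 in Dnmt1-/-. They are thus not 9 separate observations. Downstream islands changed less, with 17.3% and 19.5% at 16.5 kb (17 CpGs) and 61.7% and 51.8% at 17.3 kb (11 CpGs).

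Tbx1 (chromosome 16, 18581806 to 18588113, minus strand) acts in the pharyngeal arches and the cardiac outflow tract and is linked to DiGeorge syndrome. It had 41 of 183 CpGs called lower (22.4%, against 44.2% of all CpGs) and 1 higher (0.546%, against 0.635%). Its start region held 3 islands. The island 0.881 kb upstream was methylated in both libraries and fell from 67.9% to 54.1% over 15 CpGs, with 2 called lower and 1 higher, while the island over the start had 14.6% and 10.4% (18 CpGs) and the next one 14.1% and 6.88% (17 CpGs). The long island over the 3′ exons stayed low, with 9.92% and 4.53% over 81 CpGs. Of 127 Tbx1 CpGs at 20% or less in Dnmt1+/+, 0 were called higher, against 1.05% over the table.

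Tbx15 and Tbx18 had 0 of 105 and 0 of 87 CpGs called higher, against 0.635% of all CpGs. They belong to 1 branch of the family with Tbx1 (1 of 183 called higher) and Tbx20 (7 of 39). Tbx15 (chromosome 3, 99044304 to 99158182, plus strand) acts in the skeleton and in the pattern of coat colour. Its intronic island at 3.39 kb fell from 72.6% to 25.3% over 11 CpGs and the one at 4.40 kb from 70.1% to 23.4% over 5. An island 12.5 kb before its first protein-coding transcript start had 4.26% and 0.659% over 22 CpGs. That island (99044742 to 99045588) lies near the annotated 5′ end of the gene and was counted as away from promoters. Tbx18 (chromosome 9, 87597635 to 87626095, minus strand) acts in the epicardium, sinus node and ureter. Its promoter island had 6290 and 8197 calls in all, of which the methylated share was 1.41% (1.15 to 1.74%) and 1.20% (0.982 to 1.45%). Just 1.70 kb upstream of the start, an island of 6 CpGs fell from 81.0% to 17.7%, and all 6 were called lower.

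Tbx21 (chromosome 11, 96959385 to 96976645, minus strand) encodes T-bet, the factor that directs T helper cells to the Th1 fate. It had the largest share of lower calls, 29 of 45 CpGs or 64.4% (against 44.2% of all CpGs), and 0 higher (against 0.635%). The starting level enters this share. Of the 18 Tbx21 CpGs that started at 80% or above, 17 had lower calls (94.4%, against 88.2% over the table). Among genes with at least 5 such CpGs, that share ran from 46.7% at Tbx2 to 100% at Tbx5. The promoter island of Tbx21 was low in both libraries. In its intron, the 5 CpGs of the printed stretch went from 83.7% to 5.60% and were all called lower. That stretch was likewise picked for its large fall, and 3 of its CpGs had 25 calls in each library. The adjoining window of 7 CpGs went from 91.2% to 36.2%, with 6 called lower. Single CpGs of that window lay between 0% and 61.1% in Dnmt1-/-, against 0% to 16% in the printed stretch. Tbx6 (chromosome 7, 133924997 to 133929074, plus strand), a regulator of paraxial mesoderm, had few measured CpGs. Its 18 island CpGs, at 4.08% and 1.23%, lie over the start of the neighbouring gene Ypel3 rather than over Tbx6, and of 2 CpGs outside islands 1 was called lower.

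**Figure D5:**
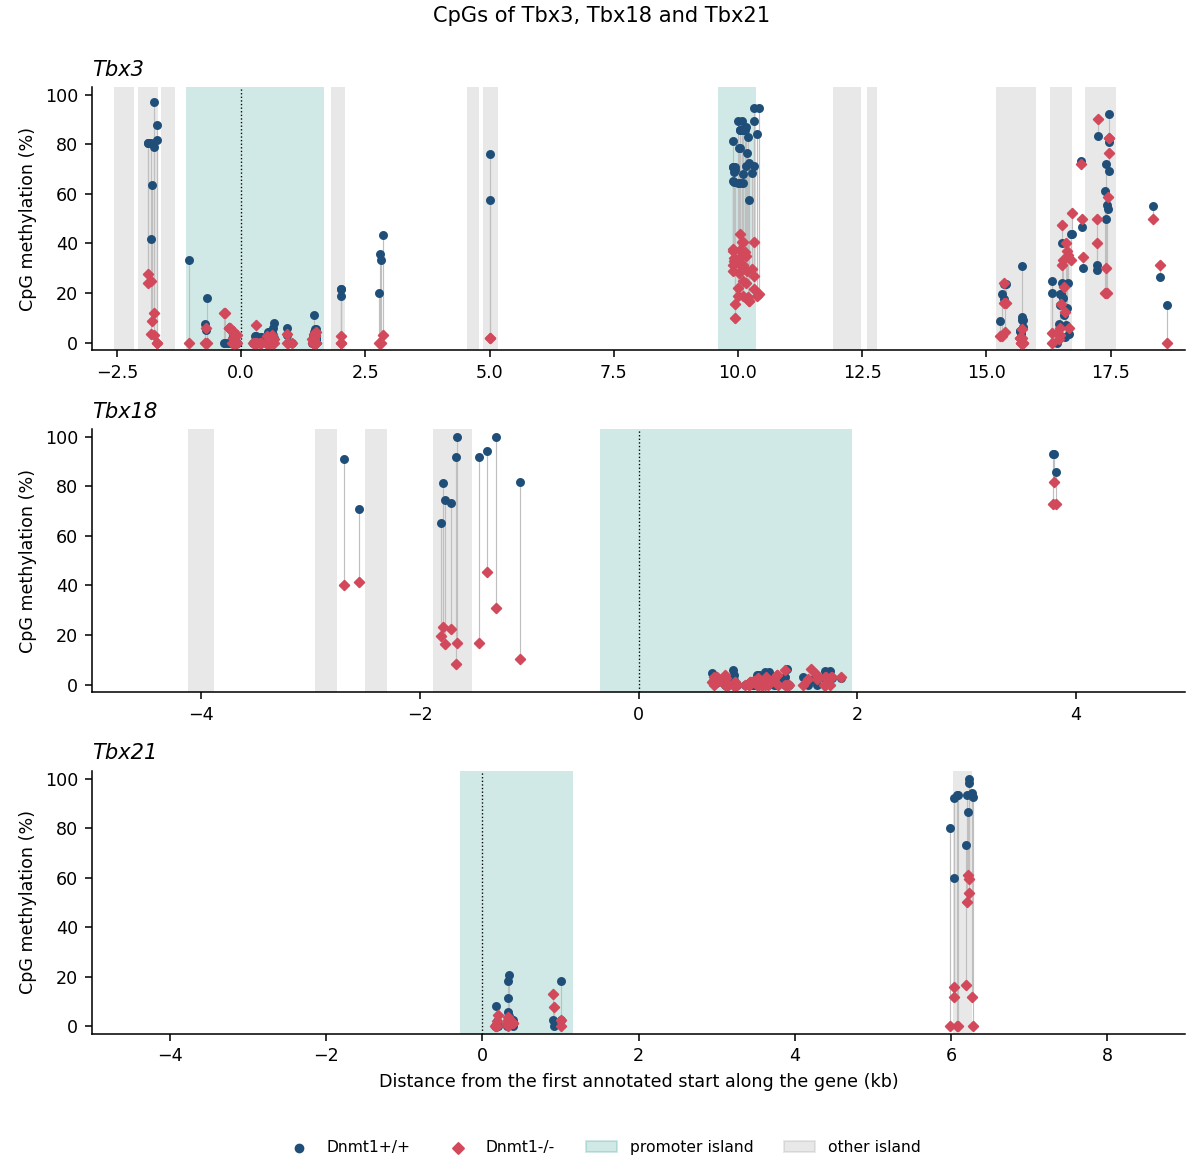
Methylation in percent of single CpGs of Tbx3, Tbx18 and Tbx21 (y axes) against distance in kb from the first annotated start along each gene (x axes). Circles are Dnmt1+/+, diamonds Dnmt1-/-, and shading marks promoter and other islands. Islands at the first start have means between 1.28% and 5.42% in the 2 libraries, and diamonds lie far below circles at -1.87 and 9.98 kb in Tbx3, at -1.70 kb in Tbx18 and at 6.15 kb in Tbx21.

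Further genes of the family and of its pathways were read in the same way. Of 7 other T-box genes (T, Eomes, Tbr1, Tbx10, Tbx19, Tbx22 and Mga), 4 had promoter islands with at least 5 measured CpGs, of which 0 rose and 0 fell (against 0.835% and 11.9% over all genes), and body and flank fell in 6 of 6 (against 99.1%). The largest difference among these 4 was that of T, the regulator of the primitive streak and notochord, from 8.90% to 3.92%, and Tbr1, a factor of cortical neurons, had 38.4% and 33.9%, with the opposite direction in pooled calls (22.4% and 26.7%). Read one by one, 1 of 6 promoter islands of these genes rose (16.7%, against 1.21% over all genes), at Tbr1, from 11.8% to 26.3% over 20 CpGs with 8 called higher. Another of Tbr1 fell, from 78.5% to 41.0% (1 of 6, against 13.3%). Of their 6 islands elsewhere 0 rose (against 1.69%) and 2 fell (33.3%, against 82.7%). An island of Tbr1 at 7.60 kb lay just under the limit for a rise, with 23.5% and 33.4% over 60 CpGs, of which 13 were called higher and 1 lower. Of 14 partners and targets of T-box factors, among them the cardiac regulators Nkx2-5, Gata4 and Hand2, 10 had promoter islands with at least 5 measured CpGs, of which 0 rose and 2 fell (against 0.835% and 11.9%), and body and flank fell in 5 of 6 (against 99.1%). Among these 10 the largest fall was at Nkx2-5, from 26.7% to 6.46%, and the largest difference upward was at Gja5, a connexin of the atria, with 6.62% and 12.3%. In pooled calls Gja5 had 4.97% and 6.03%, and 13 of its 17 CpGs, in 1 island, had 4.63% and 0.699%. Of 16 single promoter islands 1 rose (6.25%, against 1.21% over all genes), in Gata4 from 18.7% to 37.2% over 13 CpGs, and 3 fell (18.8%, against 13.3%). Of 15 islands elsewhere 1 rose (6.67%, against 1.69%), in Isl1 from 20.8% to 38.2% over 6 CpGs, and 4 fell (26.7%, against 82.7%). For islands elsewhere in both lists, the background again left out islands at the start of any gene, and the lists only those at the gene's own starts.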

How the data were processed

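Genomic DNA of Dnmt1+/+ and Dnmt1-/- MEFs was bisulfite sequenced by a provider, which also carried out quality control and mapping to mm9. Bismark is named in the submitters' processing notes, with its version and the conversion rate not given in the sources used here. The depth deposited by the authors is a count of methylation calls per CpG, kept at 10 or more in both libraries, and the percent deposited by the authors is the methylated share of those calls.

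Methylated calls were recovered as percent times depth, which was whole at every CpG within 0.001. The table holds 74636195 calls for Dnmt1+/+ and 78401157 for Dnmt1-/-, and the T-box CpGs 55117 and 61110. Single CpGs were tested by Fisher's exact test, and p-values were adjusted (Benjamini-Hochberg) across 1790826 CpGs. The test was checked on simulated data. Means count each CpG once, and 95% Wilson intervals use pooled calls. Reads carry no molecular identifiers and may be PCR copies of 1 molecule, so the intervals and the limits at 0 calls describe counting error alone. Some calls may also be counted more than once, which was not tested. In Tbx4, neighbouring CpGs had 38 and 76 calls in Dnmt1+/+ and 58 and 116 in Dnmt1-/-. The only Tbx1 CpG called higher had 54 of 120 and 96 of 158 calls methylated. Some nearby CpGs had even methylated counts too (108, 58, 68 and 42 in Dnmt1+/+). Where calls repeat, intervals are too narrow and adjusted p-values too small. Genes and starts came from GENCODE vM1 and islands from the NCBIM37 sequence. CpGs in CCGG or TCGA were left out.

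All 10 genes were described. Named stretches came from 500 bp windows holding 5 or more CpGs: those with the 3 largest rises, the 3 largest falls, and the 3 highest in Dnmt1-/- among those at 80% or more in Dnmt1+/+, at most 1 of each kind per gene. Sequences are printed for 5 of these 9 windows, and the Tbx2 promoter stretch was chosen apart from this rule. Genes, lists and rules were chosen with earlier results of these data known. Alternatives were all CpGs, a depth of 20, pooled calls, thinning to 10 calls, stricter limits and islands, narrower promoters and flanks, and removal of the deepest CpGs. Software was scipy 1.17.1, pandas 2.3.3, numba 0.67.0, matplotlib 3.10.9 and numpy 2.4.6, under python 3.11.15. The study's other data types were not used here.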

Additional observations from a re-analysis of the deposited data

Results flagged for a closer look

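CpGs in CCGG or TCGA were not used in the comparisons, and they read higher than the remaining CpGs in the promoter islands of the T-box genes and of all genes alike. Over the promoter islands of all protein-coding genes, 109503 such CpGs averaged 54.7% in Dnmt1+/+ and 52.8% in Dnmt1-/-, whereas the remaining CpGs averaged 6.30% and 3.12%. In the T-box genes the 109 such CpGs averaged 55.6% in Dnmt1+/+ and 54.7% in Dnmt1-/-, whereas the 375 remaining CpGs of the same islands averaged 13.8% and 9.30%. Among genes with at least 5 such CpGs, the means lay between 50.7% (Tbx15) and 60.4% (Tbx3) in Dnmt1+/+ and between 49.4% (Tbx15) and 60.1% (Tbx4) in Dnmt1-/-. Of the low promoter islands, Tbx18 read 50.9% in both libraries over 22 CpGs and Tbx21 58.3% and 59.6% over 6. Tbx20 had only 2 such CpGs, at 38.8% and 49.9%. The source of these values was not tested.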

How the results depend on the processing

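Each genotype had 1 library, so values were held against counting error alone, and no alternative bears on the spread between libraries. No paired analysis was possible because there are no replicates to pair.

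Thinning each CpG to 10 calls left 59 lower and 10 higher calls among the T-box CpGs, by construction with less power. In Dnmt1+/+ and Dnmt1-/-, promoter island means were 23.2% and 19.5% with all CpGs, 12.4% and 8.13% at a depth of at least 20, 12.4% and 8.08% with pooled calls, and 15.9% and 10.9% within 1 kb of a start. With stricter islands (500 bp, 55% GC, ratio of 0.65) the Dnmt1+/+ mean was 14.6%. With only the start furthest 5′ of each gene, an alternative chosen after seeing the data, they were 7.55% and 5.33%, and 0 of 8 genes rose and 0 fell, as Tbx4 had too few CpGs to be read. When a change of 20 points was required, 0 genes had a promoter island class that fell. Body and flank means were 73.1% and 44.3% with all CpGs and 66.7% and 23.1% at a depth of at least 20. With pooled calls the Dnmt1-/- mean was 22.3%, and with stricter islands the Dnmt1+/+ mean was 51.7%. Where the construction does not give the cause, the cause was not tested. Among single genes, body and flank differences moved by over 1.5 times at Tbx2 (-18.6 points with stricter islands and -33.2 with all CpGs, against -51.0), Tbx3 (-45.0 with flanks of 2 kb, against -25.0), Tbx5 (-14.8 with stricter islands, against -24.3) and Tbx15 (-29.4 with all CpGs, against -53.8). The promoter island difference of Tbx1 was -4.55 points at a depth of at least 20 and -5.01 with pooled calls, against -8.10, that of Tbx3 was -1.20 with the first start only, against -16.4, and the Tbx5 island at 2.75 kb rose by 12.6 points with pooled calls, against 19 points. Of 130 comparisons of single genes and islands with an alternative, 40 moved beyond counting error and 0 reversed. The 6 rising islands, picked for a rise in the main setting, still rose by 10 points or more in 23 of 24 comparisons. The exception was Tbx20 at a depth of at least 20, and the range was 5.54 to 41.1 points. Leaving out the deepest CpGs gave the same value for each of the 6. Stricter islands were not applied to them.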
